A study of Mus musculus with 6 samples.

Results

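The 29 genes described here encode the enzymes that build cholesterol, a few proteins that move, store or feed sterol synthesis, and the proteins that regulate the transcription factor SREBP2. They were picked by gene name from 36706 genes in the deposited tables, and all 29 were present and entered the test, which kept 14011 genes. Messenger RNA was sequenced from mouse dendritic cells of WT genotype, grown from bone marrow with 20 ng/mL GM-CSF, a cytokine that drives marrow precursors towards dendritic cells and macrophages; the medium was replaced on day 3 and on day 5. The libraries were 3 of cells that received 4-OI on top of IFN-γ and 3 of cells with IFN-γ alone. IFN-γ is the cytokine interferon gamma, which the cells of all 6 libraries received, and 4-OI is 4-octyl itaconate, an ester of the immune metabolite itaconate that enters cells. The comparison therefore asked what 4-OI added to IFN-γ; a group without IFN-γ and a group with 4-OI alone are not analysed here. The labels state neither dose nor duration of either agent, nor animal or batch. Sample titles name macrophages where the cell type label names dendritic cells, and the label's term is used below.

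Cells make cholesterol from acetyl-CoA, first through the mevalonate steps, which also yield the isoprenoids used for protein prenylation, dolichol and ubiquinone, and then through squalene, lanosterol and a chain of sterol intermediates. When sterols are scarce in the endoplasmic reticulum, SCAP escorts SREBP2 to the Golgi, where the proteases S1P and S2P release its transcription factor domain; when sterols are plentiful, INSIG proteins hold SCAP back. In macrophages and dendritic cells, interferons and sterol synthesis are known to influence each other.

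Total counts ran from 19656368 to 29244717 per library, and the first principal component, with 79.5% of the variance, separated the treatments. On the second component, IFN-γ + 4-OI replicate 3 lay at -14.4, against 12.4 and 5.84 for the other libraries with 4-OI, and IFN-γ replicate 1 lay at 32.0, against -19.1 and -16.8 for the other IFN-γ libraries. Summed stromal cell markers were 1.56 to 2.22 CPM (a gene's count relative to the library total, scaled by TMM factors) in the IFN-γ + 4-OI libraries, 41.3 CPM in IFN-γ replicate 1 and 4.11 and 4.67 CPM in the other IFN-γ libraries. In IFN-γ + 4-OI replicate 3, 21 of the 29 members lay above their group's mean; in IFN-γ replicate 1, 14 did, with a median deviation of -0.01 on the log2 scale. Whether replicates came from separate cultures or animals is not labelled. The p-values then reflect only how far these libraries differ from each other, which may be technical.

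Of the 29 genes, 19 fell with 4-OI and 3 rose at an adjusted p under 0.05 in edgeR's quasi-likelihood test, and 7 passed in neither direction. That is 65.5% of the members lower, beside 25.4% of all genes tested, and 10.3% higher, beside 22.7%; in either direction 48.1% of all genes were called. The members' median log2 fold change was -0.45, where that of all genes tested was -0.01 with quartiles of -0.46 and 0.34. In 19 members every IFN-γ + 4-OI library lay below every IFN-γ library, as 30.6% of all genes did, and in 7 every one lay above, as 28.9% did; the groups overlapped in Ebp, Tmem97 and Mbtps1. Without the libraries that stood apart, IFN-γ + 4-OI replicate 3 and IFN-γ replicate 1, 20 members fell and 7 rose. Calls over all genes grew as well in that setting, from 3555 to 4695 lower and from 3181 to 4601 higher. In bulk RNA, fewer cells of a type and less RNA per cell cannot be told apart.

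The falls were moderate and the largest change was a rise. The 19 falls ran from 1.25-fold for Sc5d to 2.09-fold for Acat2, and 9 of them reached 1.5-fold: Acat2, Hmgcs1, Mvk, Pmvk, Mvd, Idi1, Fdps, Sqle and Stard4. Acss2 rose 5.56-fold, and only 174 of all genes tested had a log2 fold change as high, whereas 1481 had one as low as that of Acat2. Scaling matters for the smaller rises. With total counts in place of TMM factors the median of all genes moved to -0.27; 20 members were then lower and Acss2 alone was higher, Ggps1 and Insig2 no longer passed, and the signs of Ebp, Soat1, Insig1 and Scap turned negative.

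**Figure D1:**
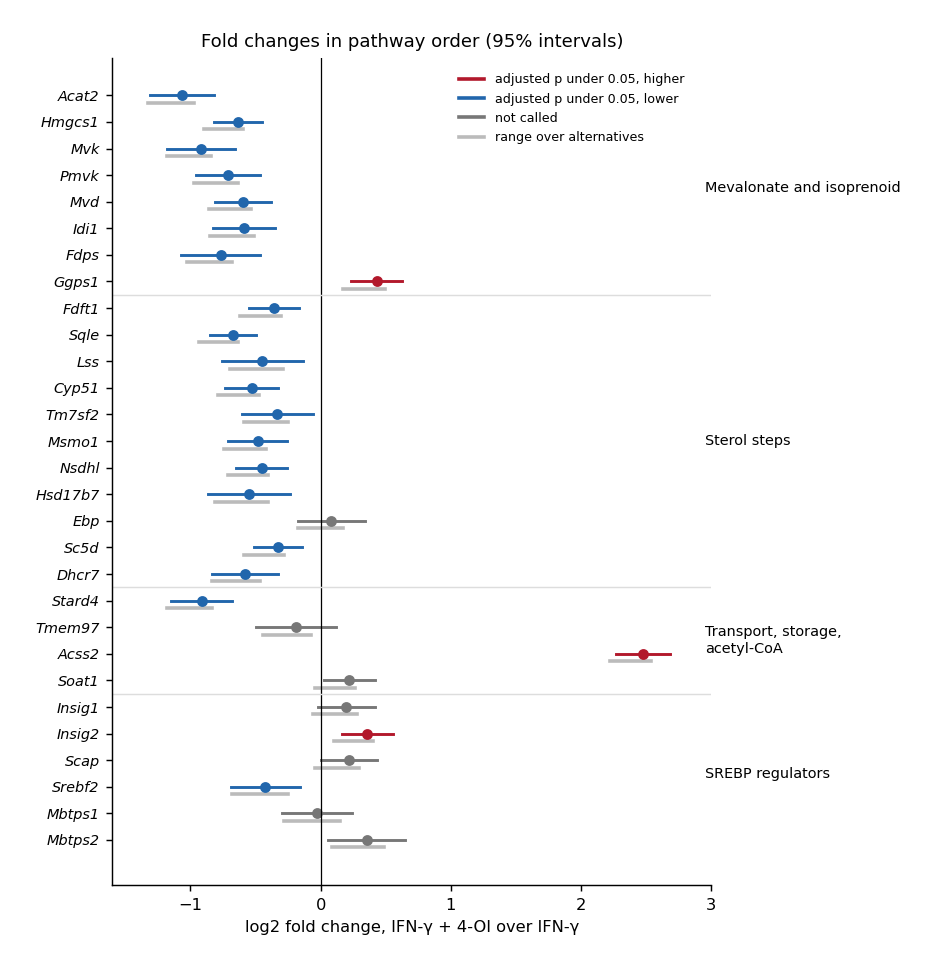
Log2 fold change of each of the 29 genes, IFN-γ + 4-OI over IFN-γ, from edgeR with its 95% interval, in pathway order; the light bars below give the range over the alternative settings. Acat2 is lowest at -1.07, Acss2 stands alone at 2.48, and the synthesis enzymes lie left of 0 except Ggps1 and Ebp.

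The promoters of 3 members are shown because they carry the only match to a sterol regulatory element among the members (Hmgcs1), the largest fall (Acat2) and the largest rise (Acss2); the last pair was chosen after their values were seen. Each run is the RefSeq window on GRCm38.p6, from 250 bases before the gene's start to 50 after it, 5′ to 3′ on the gene's strand. Capitals mark 3 motifs on either strand: TCACNCCAC, a form of the sterol regulatory element; CCAAT, the box bound by NF-Y; and GGGCGG, the box bound by SP1, both known partners of SREBPs at sterol genes. The matches do not overlap in these windows. The Hmgcs1 window is chr13:119690101-119690400 on the plus strand, that of Acss2 is chr2:155517793-155518092 on the plus strand, and that of Acat2 is chr17:12960676-12960975 on the minus strand.
Hmgcs1: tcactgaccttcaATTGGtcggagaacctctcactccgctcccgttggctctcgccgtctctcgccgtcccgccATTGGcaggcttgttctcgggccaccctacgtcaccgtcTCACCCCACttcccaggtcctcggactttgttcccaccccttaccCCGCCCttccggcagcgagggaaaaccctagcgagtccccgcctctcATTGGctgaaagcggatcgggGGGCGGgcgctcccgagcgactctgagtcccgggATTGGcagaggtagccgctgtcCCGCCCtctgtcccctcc
Acss2: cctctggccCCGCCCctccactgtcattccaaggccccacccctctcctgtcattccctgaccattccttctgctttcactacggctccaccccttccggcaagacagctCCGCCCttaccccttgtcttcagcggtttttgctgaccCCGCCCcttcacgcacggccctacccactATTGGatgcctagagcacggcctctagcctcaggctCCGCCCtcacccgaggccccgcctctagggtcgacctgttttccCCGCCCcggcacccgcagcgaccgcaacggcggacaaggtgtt
Acat2: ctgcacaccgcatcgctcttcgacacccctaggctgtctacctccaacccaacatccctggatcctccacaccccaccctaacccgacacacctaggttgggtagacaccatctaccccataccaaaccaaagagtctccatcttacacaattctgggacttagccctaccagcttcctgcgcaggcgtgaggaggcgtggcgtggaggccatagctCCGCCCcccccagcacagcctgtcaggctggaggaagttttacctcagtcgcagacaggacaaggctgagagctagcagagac

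In the Hmgcs1 window the letters TCACCCCAC begin at position -137 relative to the start, and 4 CCAAT and 3 GGGCGG boxes lie in the same window. The Acss2 window held 1 CCAAT and 5 GGGCGG boxes, and the Acat2 window held 1 GGGCGG box. RefSeq windows were matched for 25 of the 29 members, with 31 windows in all; Sqle, Fdps, Stard4 and Fdft1 had none in the table. TCACNCCAC occurred in 1 of the 31 member windows (3.23%) and in 408 of 32851 windows of all genes (1.24%). CCAAT was in 67.7% of member windows and 37.4% of all windows, and GGGCGG in 80.6% and 35.7%. The windows of all genes were neither limited to genes tested here nor matched to the members in base composition. A match is a string of letters in a window and was not tested as a binding site, and a window without a match says only that these letters are not in it.

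The mevalonate steps, which turn acetyl-CoA into isoprenoid units, fell most as a branch. Of 8 members, 7 were lower and 1 was higher, with a median log2 fold change of -0.67. Summed over the branch, the level was 109, 108 and 121 TMM-scaled CPM per kilobase of exon in the IFN-γ + 4-OI libraries, against 164, 192 and 186 in the IFN-γ libraries, a ratio of means of 0.624.

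Acat2 encodes the cytosolic thiolase that joins acetyl-CoA units, the entry to the pathway. It measured 11.5, 13.6 and 14.4 CPM with IFN-γ + 4-OI, against 26.5, 28.2 and 28.4 CPM with IFN-γ alone. The groups stood far apart, and the log2 fold change was -1.07 ± 0.11 (SE; adjusted p = 0.000111). Of the 50-base words in Acat2 transcripts, 39.1% also occur in its neighbour Acat3, so some reads could belong to either; Acat3 itself averaged 0.475 ± 0.0908 CPM with IFN-γ + 4-OI and 0.871 ± 0.276 CPM with IFN-γ (SD, n = 3 each).

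Hmgcs1, the synthase that makes HMG-CoA, had 84.9, 85.1 and 94.9 CPM in the IFN-γ + 4-OI libraries and 136, 138 and 137 CPM in the IFN-γ libraries. The IFN-γ libraries were nearly identical, and every library with 4-OI lay below them. Its log2 fold change was -0.63 ± 0.08 (adjusted p = 0.000376).

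Mevalonate is next phosphorylated and decarboxylated by 3 enzymes. Mvk, mevalonate kinase, was among the least abundant members at 5.05, 5.47 and 5.31 CPM with IFN-γ + 4-OI, against 8.98, 10.9 and 10.1 CPM with IFN-γ; its log2 fold change was -0.92 ± 0.11 (adjusted p = 0.000331). Pmvk, phosphomevalonate kinase, had 44.9, 45.2 and 51.6 CPM against 69.0, 84.2 and 79.0 CPM in the same order, and fell 1.64-fold (adjusted p = 0.000908). Mvd, the decarboxylase that forms isopentenyl diphosphate, averaged 24.8 ± 0.358 CPM with IFN-γ + 4-OI and 37.5 ± 3.43 CPM with IFN-γ, a fall of 1.51-fold (adjusted p = 0.00118). None of the 3 overlapped between groups. Of the exon bases of Mvd, 28.6% overlap LOC118567623 on the opposite strand, and the strand setting of the counting is not given in the sources used here; that gene averaged 4.03 CPM with IFN-γ + 4-OI and 6.51 CPM with IFN-γ.

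Isopentenyl units are then isomerised and joined. Idi1, the isomerase, had 17.0, 16.9 and 18.1 CPM with IFN-γ + 4-OI, against 29, 25.9 and 23.4 CPM with IFN-γ (log2 fold change -0.59 ± 0.10, adjusted p = 0.00209). Fdps, which makes farnesyl diphosphate, the branch point to sterols and prenyl groups, had 59.3, 56.3 and 69.9 CPM with IFN-γ + 4-OI, against 88.2, 116 and 111 CPM with IFN-γ. The lowest IFN-γ value came from replicate 1, and all 3 still exceeded the libraries with 4-OI; the fall was 1.70-fold (adjusted p = 0.00197). Of the 50-base words in Fdps and Idi1 transcripts, 26.2% and 17.7% also occur in other annotated genes, so reads could be split with those and their counts are less certain.

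Ggps1 went the other way. It encodes geranylgeranyl diphosphate synthase, which lengthens farnesyl diphosphate for prenylation of proteins and does not lie on the route to cholesterol. Its values were 51.2, 51.6 and 46.0 CPM with IFN-γ + 4-OI and 37.2, 35.4 and 37.9 CPM with IFN-γ, a rise of 1.35-fold (log2 fold change 0.43 ± 0.09, adjusted p = 0.00397). The groups did not overlap; with total-count scaling the change was 0.17 (adjusted p = 0.217).

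The sterol steps, from squalene to cholesterol, fell less and more evenly. Of 11 members 10 were lower and Ebp did not pass, with a median log2 fold change of -0.45. Their summed level was 113, 111 and 121 CPM per kilobase with IFN-γ + 4-OI, against 146, 161 and 153 with IFN-γ, a ratio of means of 0.750. Over both branches of synthesis the 19 enzymes summed to 228 ± 13.4 CPM per kilobase with IFN-γ + 4-OI and 334 ± 21.8 with IFN-γ (SD, n = 3 each), and the libraries of both groups did not overlap.

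Fdft1, squalene synthase, commits farnesyl diphosphate to sterols and had 42.6, 41.7 and 44.9 CPM with IFN-γ + 4-OI, against 52.3, 58.6 and 54.9 CPM with IFN-γ (fall of 1.28-fold, adjusted p = 0.00825). Of its exon bases 7.43% overlap Ctsb on the opposite strand, a far more abundant gene that rose to 2560 CPM with IFN-γ + 4-OI, against 1601 CPM with IFN-γ. Sqle, squalene epoxidase, a rate-limiting oxygen-dependent step, had 52.0, 54.2 and 57.0 CPM with IFN-γ + 4-OI, against 87.0, 86.8 and 86.8 CPM with IFN-γ. Its IFN-γ libraries were nearly identical, and its log2 fold change of -0.68 ± 0.08 (adjusted p = 0.000233) was the largest fall of the sterol steps. Lss, which closes squalene epoxide into lanosterol, had 22.6, 20.6 and 15.8 CPM with IFN-γ + 4-OI, against 27.8, 26.9 and 25.5 CPM with IFN-γ. The libraries with 4-OI spread more than for most members, and the fall of 1.36-fold (adjusted p = 0.0251) lost its call without IFN-γ replicate 2 or 3 or IFN-γ + 4-OI replicate 2, with adjusted p from 0.0544 to 0.0621.

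Lanosterol is then stripped of methyl groups. Cyp51, the sterol 14-demethylase, had 45.1, 42.5 and 48.6 CPM with IFN-γ + 4-OI, against 61.8, 67.5 and 67.1 CPM with IFN-γ (log2 fold change -0.53 ± 0.09, adjusted p = 0.00164). Msmo1, the methylsterol monooxygenase, was the most abundant sterol enzyme per length in both groups and had 74.9, 69.9 and 83.8 CPM with IFN-γ + 4-OI, against 101, 115 and 104 CPM with IFN-γ (fall of 1.40-fold, adjusted p = 0.00429). Nsdhl, the decarboxylating dehydrogenase that follows it, had 13.6, 13.6 and 13.7 CPM with IFN-γ + 4-OI, against 18.4, 19.7 and 18.0 CPM with IFN-γ. The gap was wider than the spread of either group, with a log2 fold change of -0.45 ± 0.08 (adjusted p = 0.00287). Hsd17b7, the ketosteroid reductase of the same complex, had the lowest level per length of all members and fell 1.46-fold (adjusted p = 0.0110); without IFN-γ + 4-OI replicate 2 its adjusted p was 0.0522. Tm7sf2, a sterol reductase, averaged 12.3 ± 0.484 CPM with IFN-γ + 4-OI and 15.5 ± 2.10 CPM with IFN-γ, and its fall of 1.26-fold (adjusted p = 0.0479) lost its call under 10 of 15 alternative settings.

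The last steps move double bonds in the sterol rings. Ebp, the sterol isomerase, had 32.8, 34.2 and 37.7 CPM with IFN-γ + 4-OI, against 28.8, 36.5 and 33.7 CPM with IFN-γ, and the groups overlapped (log2 fold change 0.08, 95% interval -0.17 to 0.34, adjusted p = 0.572). Ebp was the only synthesis enzyme without a call. Sc5d, the desaturase that acts on its product, had 35.4, 38.0 and 38.8 CPM with IFN-γ + 4-OI, against 47.1, 48.4 and 45.3 CPM with IFN-γ; the fall of 1.25-fold (adjusted p = 0.0111) lost its call without IFN-γ + 4-OI replicate 1 (adjusted p = 0.0662). Dhcr7, the reductase that turns 7-dehydrocholesterol into cholesterol, had 8.90, 9.19 and 7.45 CPM with IFN-γ + 4-OI, against 13.1, 12.9 and 12.1 CPM with IFN-γ. It was a low-abundance gene with a clear gap between groups, and it fell 1.49-fold (adjusted p = 0.00314).

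**Figure D2:**
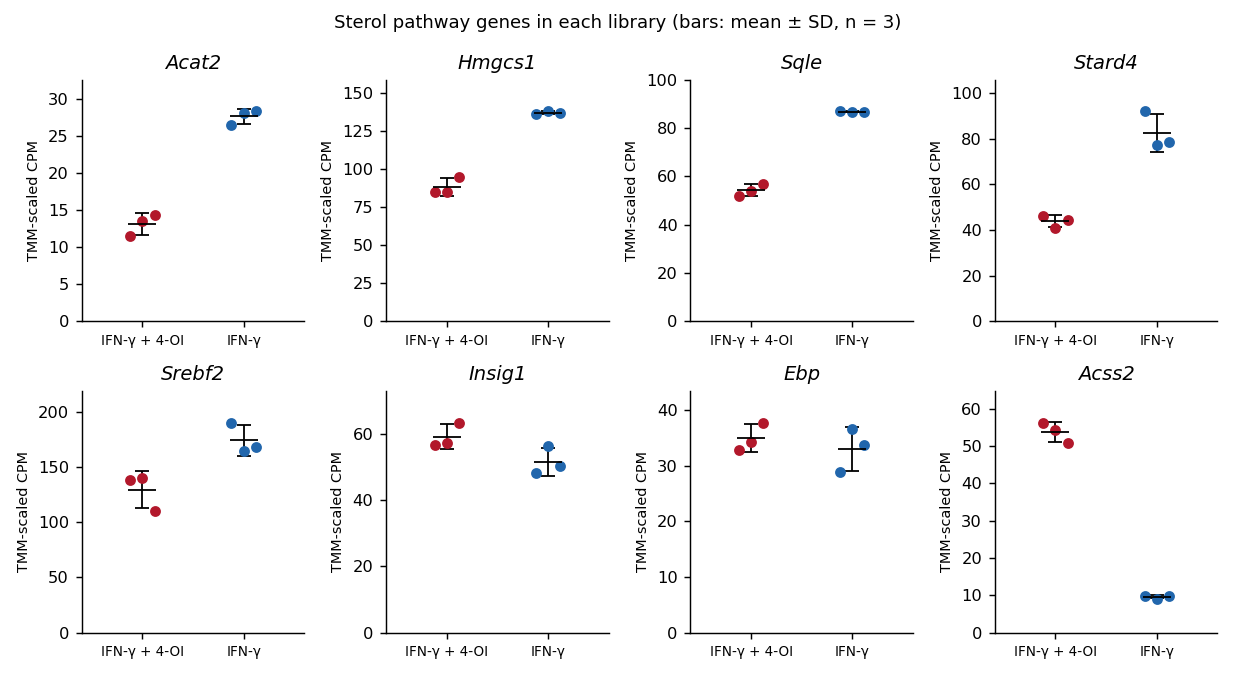
TMM-scaled CPM of 8 genes in each of the 6 libraries (points), with mean ± SD over 3 libraries, IFN-γ + 4-OI on the left and IFN-γ on the right of each panel. Acat2, Hmgcs1, Sqle, Stard4 and Srebf2 are lower in every library with 4-OI, Acss2 is higher in every one (50.9 to 56.3 against 9.17 to 9.97 CPM), and Ebp overlaps.

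The genes around synthesis did not move together. Among the 4 that transport, store or supply, 1 rose, 1 fell and 2 did not pass, and the sum was 116 ± 4.10 CPM per kilobase with IFN-γ + 4-OI and 101 ± 1.81 with IFN-γ.

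Acss2 encodes the cytosolic synthetase that makes acetyl-CoA from acetate, and is a known target of SREBPs. In the deposited coordinates it lies on chromosome 2 from 155359963 to 155404663 on the plus strand. The submitters' processing notes name mm10, but none of the 29 members shared a start or an end with RefSeq's GRCm38 annotation, so the assembly of these positions is uncertain. It had 56.3, 54.3 and 50.9 CPM with IFN-γ + 4-OI, against 9.97, 9.17 and 9.89 CPM with IFN-γ. The groups were separated by several times their spread, with a log2 fold change of 2.48 ± 0.09 (adjusted p = 1.96e-06) and a range of 2.22 to 2.54 over the alternatives. Its antisense neighbour Acss2os, which overlaps 3.99% of its exon bases, was below 1 CPM in both groups. Stard4, which carries cholesterol through the cytosol and is also a known SREBP2 target, moved in the opposite direction. Its values were 46.1, 41.0 and 44.3 CPM with IFN-γ + 4-OI, against 92.0, 77.2 and 78.4 CPM with IFN-γ, a fall of 1.89-fold (adjusted p = 0.000188).

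Tmem97, a sterol-regulated membrane protein also known as the sigma-2 receptor, had 25.3, 28.8 and 31.3 CPM with IFN-γ + 4-OI, against 27.2, 36.9 and 33.2 CPM with IFN-γ. The groups overlapped and the interval of its log2 fold change ran from -0.49 to 0.12. Without IFN-γ replicate 1 the change was -0.30 with an adjusted p of 0.0249. Of the 50-base words in Tmem97 transcripts, 20.8% also occur in Gm5809, so its counts are less certain. Soat1, the acyltransferase that esterifies cholesterol for storage in droplets, was the most abundant member by counts, with 325, 308 and 340 CPM with IFN-γ + 4-OI, against 298, 265 and 272 CPM with IFN-γ. Its libraries did not overlap, but its log2 fold change of 0.22 ± 0.09 missed the threshold (adjusted p = 0.0665); without IFN-γ replicate 1 it passed (adjusted p = 0.00910).

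Among the 6 regulators Srebf2 fell, Insig2 rose and 4 did not pass, with summed levels of 74.6 ± 1.99 CPM per kilobase with IFN-γ + 4-OI and 76.4 ± 3.96 with IFN-γ. Srebf2, which encodes SREBP2 itself and is a known target of its own product, had 138, 140 and 110 CPM with IFN-γ + 4-OI, against 190, 164 and 168 CPM with IFN-γ. Replicate 3 was the lowest library with 4-OI and replicate 1 the highest with IFN-γ, and the groups did not overlap (fall of 1.34-fold, adjusted p = 0.0169). Without those libraries, a setting added after the data had been seen, its log2 fold change shrank from -0.43 to -0.25 (adjusted p = 5.42e-06). Leaving out the extreme value of each group narrows the spread, so this smaller p is not stronger support. Scap, the escort of SREBP2, had 22.2, 23.4 and 21.3 CPM with IFN-γ + 4-OI, against 20.5, 19.5 and 17.7 CPM with IFN-γ. Its libraries lay above without passing (log2 fold change 0.22 ± 0.09, adjusted p = 0.0894), and it passed without IFN-γ replicate 1 (adjusted p = 0.0302). Without IFN-γ + 4-OI replicate 3 and IFN-γ replicate 1 together, 4 regulators rose and 1 fell, while calls over all genes grew as well.

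The 2 INSIG genes, which encode the anchors that hold SCAP in the endoplasmic reticulum, both lay above in every library with 4-OI, and 1 of them passed. Insig1, a strong target of SREBPs, had 56.7, 57.1 and 63.3 CPM with IFN-γ + 4-OI, against 48.0, 56.2 and 50.2 CPM with IFN-γ (log2 fold change 0.20, 95% interval -0.02 to 0.42, adjusted p = 0.123). The IFN-γ + 4-OI minimum, 56.7 CPM, lay close to the IFN-γ maximum, 56.2 CPM. Insig2 had 40.1, 36.6 and 39.3 CPM with IFN-γ + 4-OI, against 28.4, 31.3 and 30.7 CPM with IFN-γ, a rise of 1.28-fold (adjusted p = 0.00907) that had an adjusted p of 0.366 with total-count scaling.

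The proteases that cut SREBP2 did not pass, Mbtps2 narrowly. Mbtps1, which encodes S1P, had 58.1, 56.6 and 50.8 CPM with IFN-γ + 4-OI, against 64.8, 50.1 and 53.7 CPM with IFN-γ, and the groups overlapped (log2 fold change -0.03, 95% interval -0.29 to 0.24, adjusted p = 0.869). Mbtps2, which encodes S2P, had 35.2, 33.4 and 38.4 CPM with IFN-γ + 4-OI, against 33.2, 25.3 and 25.3 CPM with IFN-γ. Its groups were separated by the narrowest of gaps because of IFN-γ replicate 1, and its log2 fold change of 0.35 ± 0.13 lay just outside the threshold (adjusted p = 0.0508); without that replicate it was 0.49 (adjusted p = 0.000848). It passed as higher under 8 of 15 alternatives, among them RLE and upper quartile scaling, DESeq2 and limma-voom. Of its 50-base words, 27.6% also occur in Yy2, a gene that lies within its span.

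Per length, the members differed by far more than they changed. Soat1 had 67.5 ± 3.37 CPM per kilobase with IFN-γ + 4-OI, the highest level there, and 57.9 ± 3.62 with IFN-γ. Fdps had 42.3 ± 4.89 with IFN-γ + 4-OI and 72.1 ± 10.3 with IFN-γ, the highest level with IFN-γ alone. Msmo1, at 32.7 ± 3.01 with IFN-γ + 4-OI and 45.8 ± 3.04 with IFN-γ, was next, and Hmgcs1, Srebf2 and Sqle had 20.9, 23.1 and 19.8 with IFN-γ + 4-OI against 32.5, 31.0 and 31.6 with IFN-γ. The lowest were Hsd17b7 at 1.14 ± 0.121 with IFN-γ + 4-OI and 1.66 ± 0.223 with IFN-γ, and Dhcr7 at 1.89 ± 0.206 and 2.82 ± 0.114. Acss2 crossed much of this range, at 19.0 ± 0.966 with IFN-γ + 4-OI and 3.42 ± 0.157 with IFN-γ. Counts per member and library ran from 93 to 8503, and the median coefficient of variation was 6.31% with IFN-γ + 4-OI and 7.45% with IFN-γ.

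**Figure D3:**
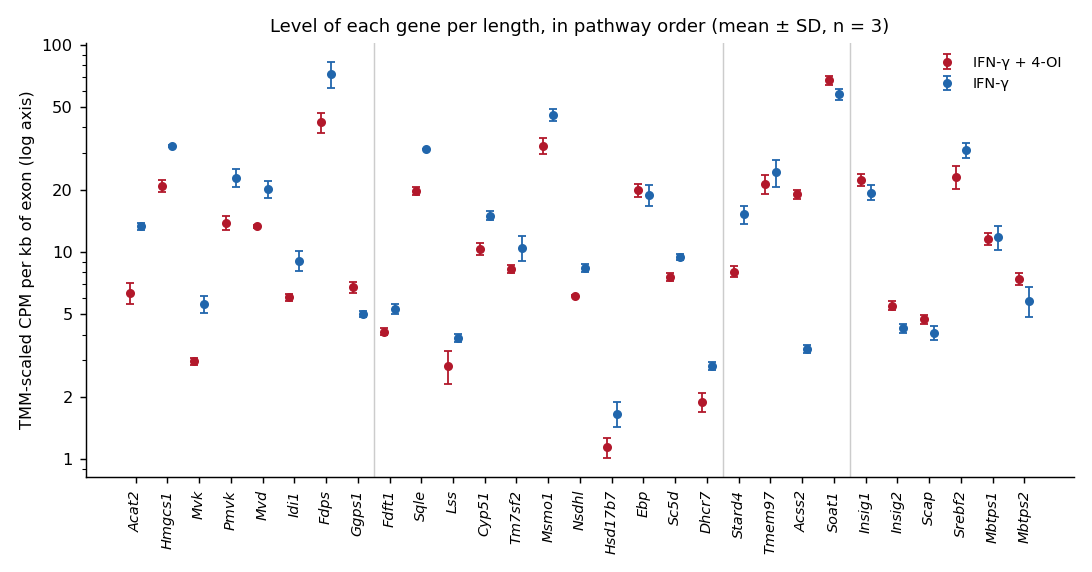
Level of each gene in TMM-scaled CPM per kilobase of exon (log axis), mean ± SD over 3 libraries, for IFN-γ + 4-OI and IFN-γ, in pathway order; lines separate mevalonate steps, sterol steps, transport genes and regulators. Acss2 has the widest gap, and the highest levels are those of Soat1 with IFN-γ + 4-OI and Fdps with IFN-γ.

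In the deposited TPM, a length-scaled share of each library that is not corrected for composition, the members' median log2 ratio was -0.82 where that of all genes tested was -0.40, and 21 of 29 members (72.4%) lay below the median of all genes. Other genes of the pathway were read from 7 lists with 104 genes, of which 98 were tested. Of these, 34 were higher and 25 were lower, with a median log2 fold change of 0.08. Over all genes tested, 22.7% were higher and 25.4% lower. With total-count scaling the list genes had 18 higher and 38 lower, while all genes moved from 3181 higher and 3555 lower to 1719 and 5452. Calls were then mostly lower in the lists for isoprenoid use (2 higher, 6 lower), sterol movement (4 and 11) and SCAP trafficking (2 and 5). The list for degradation of sterol enzymes went from 6 higher to 1 and stayed at 2 lower. A gene in 2 lists counts in each.

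Of 15 tested genes of fatty acid synthesis, which the related factor SREBP1 controls, 8 fell, Fads1 rose and 6 did not pass, where 25.4% of all genes were lower and 22.7% higher. Without IFN-γ + 4-OI replicate 3 and IFN-γ replicate 1 together, 9 fell and 5 rose, while calls over all genes grew as well. Scd1, the stearoyl-CoA desaturase, averaged 24.3 ± 1.42 CPM with IFN-γ + 4-OI and 81.5 ± 11.2 CPM with IFN-γ, a fall of 3.36-fold (adjusted p = 1.69e-05). Scd2, its paralog, was at 606 ± 12.1 CPM with IFN-γ + 4-OI and 1172 ± 108 CPM with IFN-γ (adjusted p = 0.000140). Fads1, the delta-5 desaturase of polyunsaturated fats, rose 1.35-fold. Among 12 genes for the supply of acetyl-CoA, NADPH and oxygen chemistry, 6 rose and 2 fell; 4 fell without those libraries. Me1, the malic enzyme, rose 9.66-fold (27.2 ± 3.41 CPM with IFN-γ + 4-OI and 2.84 ± 0.499 CPM with IFN-γ, adjusted p = 3.87e-06), and Pgd of the pentose phosphate pathway rose 3.11-fold. Acly, the citrate lyase that is the main cytosolic source of acetyl-CoA, fell 1.28-fold (adjusted p = 0.0235), while Acat1, the mitochondrial thiolase, fell 2.16-fold. Without any single library with 4-OI, Acly did not pass (adjusted p from 0.0683 to 0.0829), and with total-count scaling Fads1 did not (adjusted p = 0.145).

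Genes of sterol sensing and trafficking split both ways, as did all genes tested, of which 22.7% were higher and 25.4% lower. Of 12 genes that degrade sterol enzymes and INSIG, 6 rose and 2 fell. Only 3 rose without IFN-γ + 4-OI replicate 1 or 2. Erlin1, which encodes a membrane scaffold protein, fell 2.12-fold and the ubiquitin ligase gene Rnf145 fell 1.21-fold. Of 13 partners of SREBP and SCAP trafficking, 4 rose and 3 fell. Pgrmc1, a heme-binding membrane protein, rose 2.20-fold and the COPII coat gene Sec24d 1.83-fold, while its relative Sec24a fell 1.72-fold and Paqr3, a Golgi tether, 2.14-fold. Paqr3 was highest in IFN-γ replicate 1, at 13.6 CPM against 7.60 and 7.94 CPM in the other IFN-γ libraries. Of 17 genes that use isoprenoids, 6 rose, among them the dolichol kinase Dolk and the prenyl protease Rce1 (1.52-fold and 1.62-fold), and 2 fell, Pdss1 of ubiquinone synthesis (1.63-fold) and Chml, a Rab escort (1.42-fold). Rnf145 lost its call without any single library other than IFN-γ replicate 1 (adjusted p from 0.0540 to 0.0813), and Chml without IFN-γ + 4-OI replicate 2 or 3 (adjusted p of 0.0845 and 0.0609).

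Sterol release, oxidation and movement showed larger single changes. Of 12 genes of the LXR receptors and sterol efflux, 4 rose and 2 fell, where 22.7% of all genes were higher and 25.4% lower. Without IFN-γ + 4-OI replicate 3 and IFN-γ replicate 1 together 7 rose, while calls over all genes grew as well. Lipa, the lysosomal acid lipase that frees cholesterol from esters, had 795, 770 and 730 CPM with IFN-γ + 4-OI, against 106, 101 and 108 CPM with IFN-γ, a rise of 7.27-fold (adjusted p = 1.70e-06). Ch25h, the cholesterol 25-hydroxylase induced by interferons, had 0.380, 0.398 and 0.288 CPM with IFN-γ + 4-OI, against 4.15, 4.04 and 3.78 CPM with IFN-γ, a fall of 11.1-fold (adjusted p = 8.11e-06). Both changes were larger than that of Acss2, at 5.56-fold. Arl4c, a small GTPase gene and known LXR target, rose 1.64-fold, and Nr1h3, which encodes LXRα, fell 1.63-fold. Nr1h3 did not pass without IFN-γ + 4-OI replicate 1 or IFN-γ replicate 2 or 3 (adjusted p from 0.0641 to 0.0891). Of 20 genes of sterol movement between membranes, 8 rose and 7 fell: Gramd1c, which carries cholesterol from the plasma membrane, rose 7.49-fold, and Stard5, a sterol-binding START protein gene, 2.15-fold. Gramd1b, which has the same transport role as Gramd1c, fell 1.79-fold, and Gramd4, another GRAM domain gene, fell 1.44-fold.

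**Figure D4:**
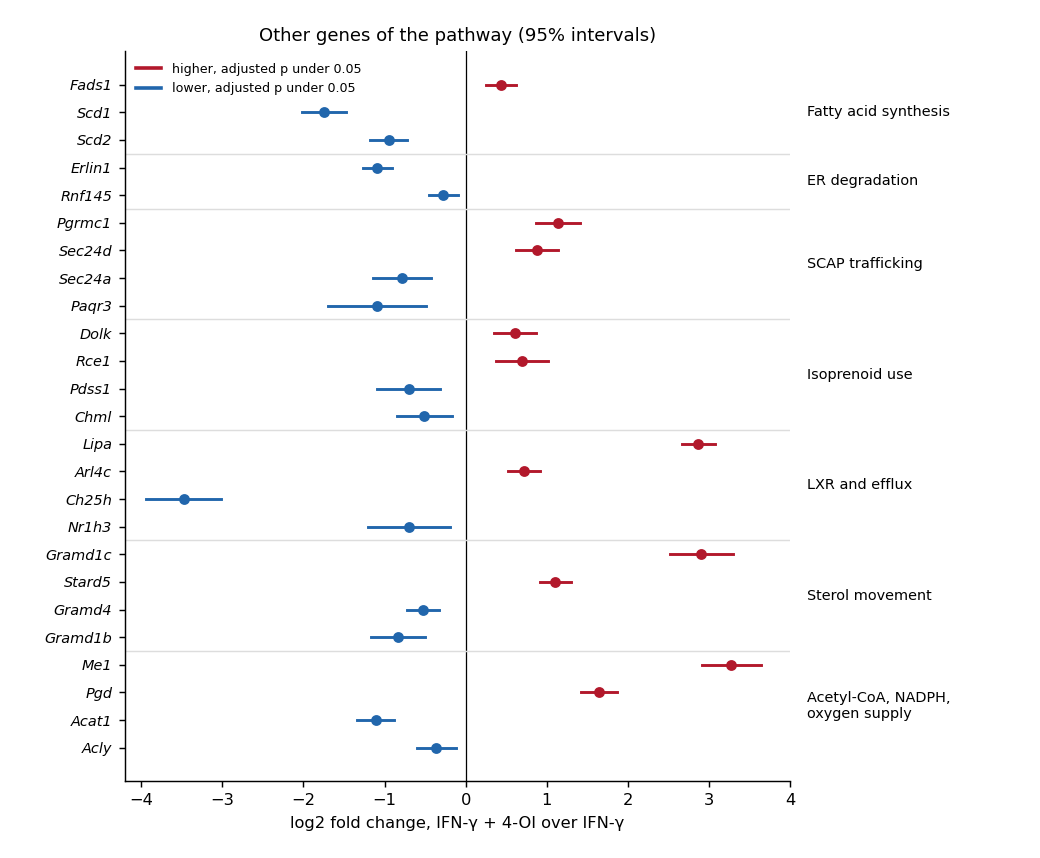
Log2 fold change of the named genes of 7 related lists, IFN-γ + 4-OI over IFN-γ, with the 95% interval of edgeR. Me1, Gramd1c and Lipa lie highest, at 3.27, 2.90 and 2.86, and Ch25h lies lowest at -3.47.

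Marker genes of cell types and of proliferation also moved between the groups, where 25.4% of all genes tested were lower and 22.7% higher. Of 16 conventional dendritic cell markers 15 were tested, 11 fell and 1 rose, with sums of 6373 to 7319 CPM with IFN-γ + 4-OI and 7959 to 9689 CPM with IFN-γ; Cd209a was near 0 in both groups and Xcr1 under 1 CPM, while Itgax, Flt3 and Zbtb46 were detected in all libraries. Of 14 macrophage markers tested, 4 rose and 4 fell, and the sums were 9669 to 10006 CPM with IFN-γ + 4-OI and 6441 to 7548 CPM with IFN-γ; Timd4 was at 0. Monocyte markers fell in 7 of 9 (sums of 5233 to 6355 CPM with IFN-γ + 4-OI and 5744 to 7146 CPM with IFN-γ) and neutrophil markers in 9 of 14, where 2 rose (3982 to 4670 CPM and 3659 to 4387 CPM in the same order). All 6 tested mast cell and basophil markers fell (103 to 111 CPM with IFN-γ + 4-OI and 341 to 371 CPM with IFN-γ), with Mcpt4 at 0. B cell markers had no call among 5 tested, and calls of a fall came from both T and NK cell markers tested, 1 of 2 stromal markers and the 1 erythroid marker tested. Of 26 genes of proliferation 23 fell and none rose, with sums of 349 to 366 CPM with IFN-γ + 4-OI and 979 to 1118 CPM with IFN-γ. The part of these markers in the members' changes was not tested.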

How the data were processed

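The authors deposited 1 table per library with whole-number counts and TPM for 36706 genes, per the file headers. HISAT2 and the build mm10 appear in the submitters' processing notes. How reads were counted, with which strand setting and annotation, is not given in the sources used here. Deposited TPM matched values recomputed from counts and lengths within a relative tolerance of 1e-06 in 100% of cases. A start or end equal to RefSeq's on GRCm38 was found for 827 of 35272 genes matched by symbol, so coordinates outside the promoter windows are given as deposited. Libraries were made with the KAPA stranded mRNA kit from Trizol extracts, per the labels' protocols.

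The groups were compared in R 4.3.3 by the robust quasi-likelihood test of edgeR 4.0.16 over the 14011 genes kept by filterByExpr (minimum count 10), with TMM factors and Benjamini-Hochberg adjustment over all of them at 0.05. Levels between genes were set per kilobase of exon. At these depths 3 counts are 0.103 to 0.153 CPM by total count, without the TMM factors used for other CPM values, counting error only. Chi-square per gene between replicates was 4.29 at least, so no library repeated another within sampling noise. The scripts were tested on simulated data. Named genes are all members and, of each list, up to 2 higher and 2 lower with the smallest adjusted p; the members and lists were chosen with earlier results of these data known, and marker genes and the genes that overlap a member were named after their values were seen. Alternatives were RLE, upper quartile and total-count scaling, no filter, at least 1 CPM in 3 libraries, DESeq2 1.42.0, limma-voom (limma 3.58.1), the replicate number as a block, each library left out, an adjusted p of 0.01 for counts of genes, and, added after the data had been seen, leaving out IFN-γ replicate 1 and IFN-γ + 4-OI replicate 3 together. Some genes that the rule names are not reported here. March6 and 0610007P14Rik of the lists are not analysed here under those symbols.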

Additional observations from a re-analysis of the deposited data

How the results depend on the processing

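Of the 19 falls, 15 were called under all 15 alternatives; Lss, Tm7sf2, Hsd17b7 and Sc5d were not. Total-count scaling gave 1719 genes higher and 5452 lower over all genes (3181 and 3555 with TMM), 1 member higher, and 18 list genes higher and 38 lower, with a median of all genes of -0.27. An adjusted p of 0.01, which is not among those 15, left 2079 genes higher and 2482 lower. It left 3 members higher and 14 lower, with 6 of the sterol steps lower, and Srebf2 (adjusted p = 0.0169) did not pass it. DESeq2 called 5 members higher. Leaving out each library in turn gave 3 to 6 members higher and 16 to 20 lower; the 6 came without IFN-γ replicate 1. Without IFN-γ replicate 1 and IFN-γ + 4-OI replicate 3 together, 4601 genes were higher and 4695 lower over all genes. In that setting 7 members were higher and 20 lower, and Mbtps1 changed sign to 0.145 (adjusted p = 0.0231). The cause was not tested. Leaving out libraries because they stood apart can narrow the spread within groups, so smaller p-values in that setting are not stronger support. Whether replicate numbers pair the libraries is not labelled. Correlations of same-numbered deviations were 0.265, -0.100 and 0.193, and with 3 libraries a group they cannot decide it. With the replicate block 4 members were higher and 19 lower, Mbtps2 being added (0.36, adjusted p = 0.0110), as under 7 other alternatives. The lowest count of a member in a library was 93 (Mvk), and Mvk was called under all 15 alternatives. With 3 libraries a group and no stated cultures, intervals cover these libraries only.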
